A study of Mus musculus with 32 samples.

Results

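The cytoplasmic ribosomal protein genes were followed across 32 whole bladders of female C57BL/6 mice. Members were taken by symbol: every gene in the count table named Rpl or Rps with a number, with Rplp0, Rplp1, Rplp2 and Rpsa, leaving out pseudogenes and the kinase and binding-protein genes that share the Rps6k and Rps19bp stems. Of 32285 genes in the table, 85 matched, and 82 had at least 10 counts in every bladder, 49 of the large and 33 of the small subunit. The least counted member was Rps27rt, with 81 counts in its lowest bladder. Just outside the limit were Rpl3l with 1 to 22 counts and Rpl39l with 0 to 10 counts, and Rpl10l had 0 counts in all 32 bladders.

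Untreated mice gave 6 young bladders at 2 months of age, 5 middle-aged bladders at 10 months and 6 old bladders at 26 months. Old mice of 26 months that had been gavaged gave 5 bladders for water, 4 for vehicle and 6 for D+Q. D+Q is the senolytic pairing of dasatinib, a kinase inhibitor, at 5 mg/kg/day and quercetin, a plant flavonoid, at 50 mg/kg/day. The vehicle mixed Phosal 50 PG (60%) with polyethylene glycol (30%) and ethanol (10%), and D+Q was dissolved in it. Per the study's methods, vehicle and D+Q were gavaged on 3 consecutive days in monthly rounds from 21 to 26 months of age, and the schedule of water gavage is not given in the sources used here. Each library came from 1 bladder. No group was gavaged at a younger age, and all animals were female and of 1 strain.

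A ribosome joins a small subunit, which reads the mRNA, to a large subunit, which forms peptide bonds, and nearly every protein of both subunits is encoded by a single highly expressed gene. Cells make these proteins in step, and many of their mRNAs start with a C followed by a run of pyrimidines, the 5′ terminal oligopyrimidine tract, through which growth signals set their translation. Some members have roles away from the ribosome. Rpl5 and Rpl11 bind Mdm2, the ligase that turns over p53, when ribosome assembly is disturbed, and the stalk proteins Rplp0, Rplp1 and Rplp2 recruit elongation factors.

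To show what such starts look like, the 30 bases around the annotated transcription start are given for 9 members: the S6 kinase substrate Rps6, the RT-qPCR reference gene Rps18, the members that differed most between water-treated and untreated old bladders, and the 3 members that moved least with the rest of the family. Sequences are from RefSeq (GRCm38.p6) on the gene's strand, with 10 bases before the start and 20 from the start on. Capitals mark the unbroken run of C and T that holds the first transcribed base. Rpl35a has 3 annotated starts, and the one with the longest run is shown.
Rps6 (chr4:86857348-86857377, minus strand): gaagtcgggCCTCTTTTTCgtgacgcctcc
Rps18 (chr17:33955646-33955675, minus strand): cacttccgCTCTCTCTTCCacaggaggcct
Rpl39 (chrX:37085203-37085232, minus strand): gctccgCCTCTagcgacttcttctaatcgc
Rps28 (chr17:33824543-33824572, minus strand): cgcgtgcggTCTCgcgagagcgaaagtgag
Rpl37 (chr15:5116603-5116632, plus strand): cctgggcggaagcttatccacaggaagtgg
Rpl35a (chr16:33056472-33056501, plus strand): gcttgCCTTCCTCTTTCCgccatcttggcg
Rpl15 (chr14:18270967-18270996, minus strand): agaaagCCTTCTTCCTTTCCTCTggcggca
Rpl7l1 (chr17:46782637-46782666, minus strand): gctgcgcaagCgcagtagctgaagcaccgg
Rpl22l1 (chr3:28805498-28805527, plus strand): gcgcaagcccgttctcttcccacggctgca
The run was 10 bases in Rps6, 11 in Rps18, 13 in Rpl35a and 17 in Rpl15, against 5 in Rpl39 and 4 in Rps28. It can begin before the first transcribed base, which in Rpl39 was a T followed by an A. In Rpl7l1 the run held 1 base, and in Rpl37 and Rpl22l1 the annotated first base was a purine. Starts were available for 62 of the 82 members. A run of at least 5 bases of C and T over the first base, read on the coding strand only, was found in 21 of these 62 genes and in 11.8% of all 27025 genes with a start. A first base C followed by at least 4 pyrimidines was found in 14 of the 62 and in 3.01% of all genes. Because only 75.6% of members had an entry, less than the 80% required, a comparison of the family with other genes on either property is void.

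**Figure D1:**
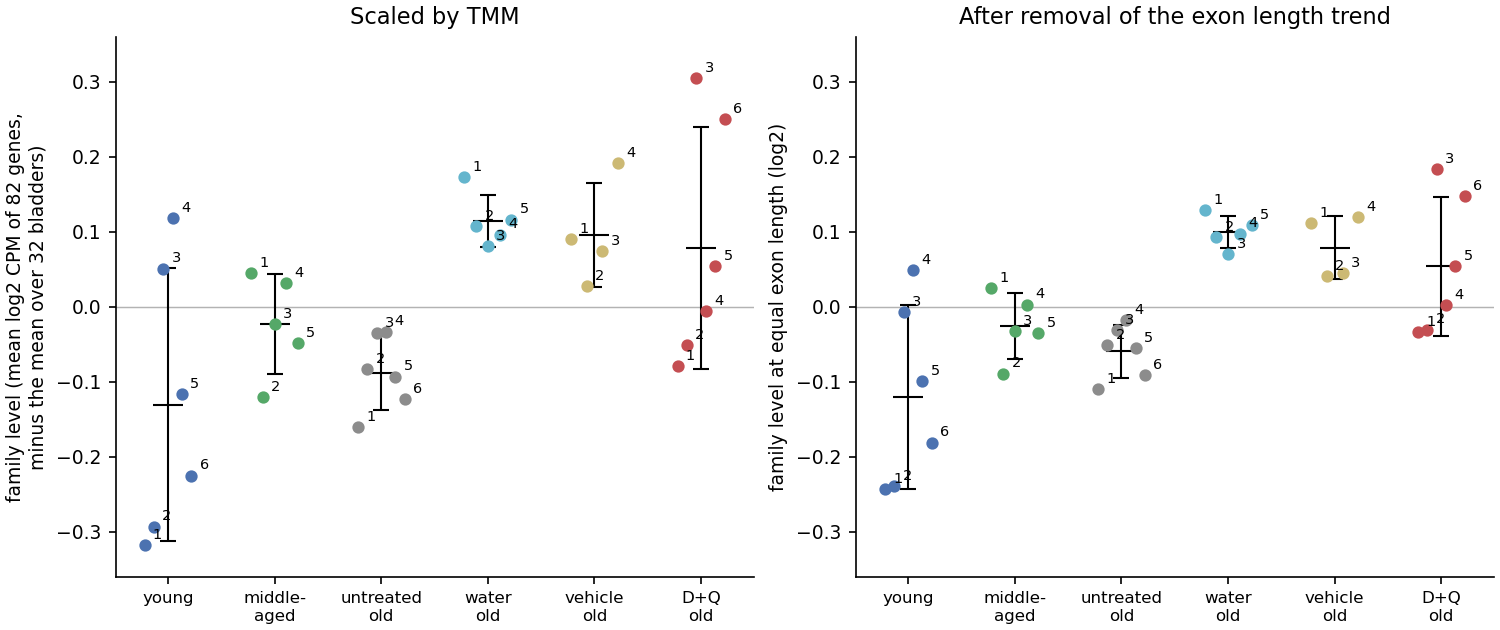
Level of the family in each bladder, as the mean log2 CPM, the counts scaled to a common library size, of the 82 genes minus their mean over all 32 bladders, scaled by the trimmed mean of M-values, TMM (left) and after removal of each bladder's trend on exon length (right). Points are bladders with their replicate numbers and bars are mean ± SD; water- and vehicle-treated old bladders all lie above 0 and untreated old bladders all below 0 in both panels.

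On TMM scaling or as a share of counts, the members stood higher in water- and vehicle-treated than in untreated old bladders. They supplied 3.02% to 4.93% of all counts of a bladder. Their share was 3.57 ± 0.493% in young (SD, n = 6), 3.95 ± 0.145% in middle-aged (n = 5) and 3.78 ± 0.142% in untreated old bladders (n = 6). After gavage it was 4.32 ± 0.120% with water (n = 5), 4.24 ± 0.180% with vehicle (n = 4) and 4.25 ± 0.459% with D+Q (n = 6). In each water-treated bladder the share was at least 4.24%, and in each vehicle-treated bladder at least 4.07%, whereas no untreated old bladder exceeded 3.94%. The share in D+Q-treated bladders reached from 3.81% to 4.93% and overlapped both. Large and small subunit genes stood at the same place: in water-treated bladders their levels were 0.11 ± 0.031 and 0.12 ± 0.040 above the mean over all bladders (log2, SD, n = 5).

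Some libraries stood apart, and the level of the family went in part with 2 technical measures. Totals ran from 15088372 to 52650259 counts per bladder. In middle-aged, water-, vehicle- and D+Q-treated mice the shallowest library was also the one with the highest family level. The shallow young bladders 3 and 4, at 15088372 and 16881598 counts, were at 0.051 and 0.12 (log2). The other 4 young bladders were between -0.32 and -0.12. Depth did not order all bladders: middle-aged bladder 2, with 30894466 counts, had the lowest level of its group (-0.12). D+Q-treated bladder 6, with 46477640 counts, was the deepest of its group. Short genes also gained or lost counts together: the slope of all genes on summed exon length was -0.089 and -0.082 log2 units per doubling of length in D+Q-treated bladders 3 and 6, the bladders with the highest family levels of all (0.30 and 0.25). It was 0.055 and 0.041 in young bladders 1 and 2, which had the lowest family levels. Members are short, with a median summed exon length of 1775.5 bases against 4347.5 for all 14604 genes with 10 counts in every bladder, so each comparison was also fitted at equal exon length, with each bladder's length trend removed. The part of depth and length in the family's level beyond that fit was not tested.

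**Figure D2:**
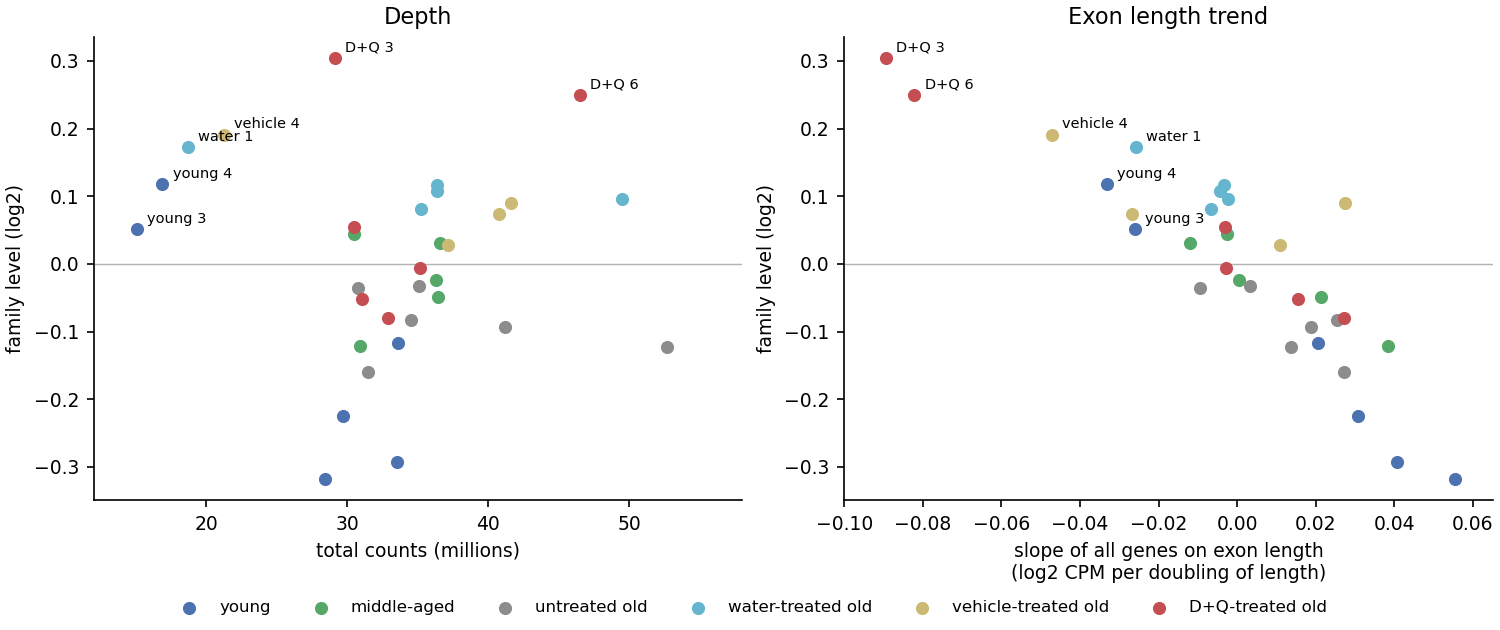
Family level of each bladder (log2, as above) against its total counts (left) and against the slope of log2 CPM of all genes on exon length, per doubling (right), coloured by group. Young 3 and 4, water 1 and vehicle 4 are the 4 shallowest libraries, and D+Q 3 and 6 have the steepest negative slopes and the highest family levels.

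Markers of the labelled tissue were present. Summed over 13 urothelial genes the level was 6724 to 8928 CPM per bladder, and over 10 smooth muscle genes it was 30394 to 47644 CPM, with none of these genes at 0 in any group. In whole tissue, fewer cells of a type and less RNA per cell cannot be told apart.

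Per length, as TPM, the members differed widely in level. Averaged over the 32 bladders, the acidic stalk protein gene Rplp1 was highest at 6481 TPM, followed by Rps15 at 3270 TPM, Rplp0 at 2757 TPM and Rps3a1 at 2700 TPM. At the low end were Rps27rt at 38.5 TPM, Rpl22l1 at 63.6 TPM and Rpl7l1 at 66.4 TPM. The copies with restricted or accessory roles were far under their parents: in untreated old bladders Rpl22l1 was at 62.0 ± 4.72 TPM and Rpl22, the subunit protein it can replace, at 330.0 ± 22.8 TPM (SD, n = 6). Likewise Rpl7l1 was at 65.5 ± 4.55 TPM and Rpl7 at 915 ± 61.4 TPM, and Rps27l, a p53 target, was at 216 ± 11.2 TPM against 1491 ± 111 TPM for Rps27. These TPM values use the deposited exon length, which adds up all isoforms, and the counting method's treatment of reads shared with the many ribosomal protein pseudogenes is not given in the sources used here, so the order of close neighbours is uncertain.

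Within groups the members moved together. Across the 32 bladders, after subtracting each group's mean, the median correlation between 2 members was 0.883 over 3321 pairs, and 99.3% of pairs were positive. The same value was 0.366 for 78 mitochondrial ribosomal protein genes and 0.686 for 38 nuclear genes of respiratory complex I. All of these pairs share the same libraries, depth and length trends, so the correlations are descriptions. A few members stood outside the common movement. Rpl7l1, a Rpl7-like protein, had a median correlation of 0.0632 with the other members, and Rpl22l1 had 0.204. Rpl15 (0.464), Rps27rt (0.465) and Rps27l (0.495) came next, followed by Rps2 (0.699).

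**Figure D3:**
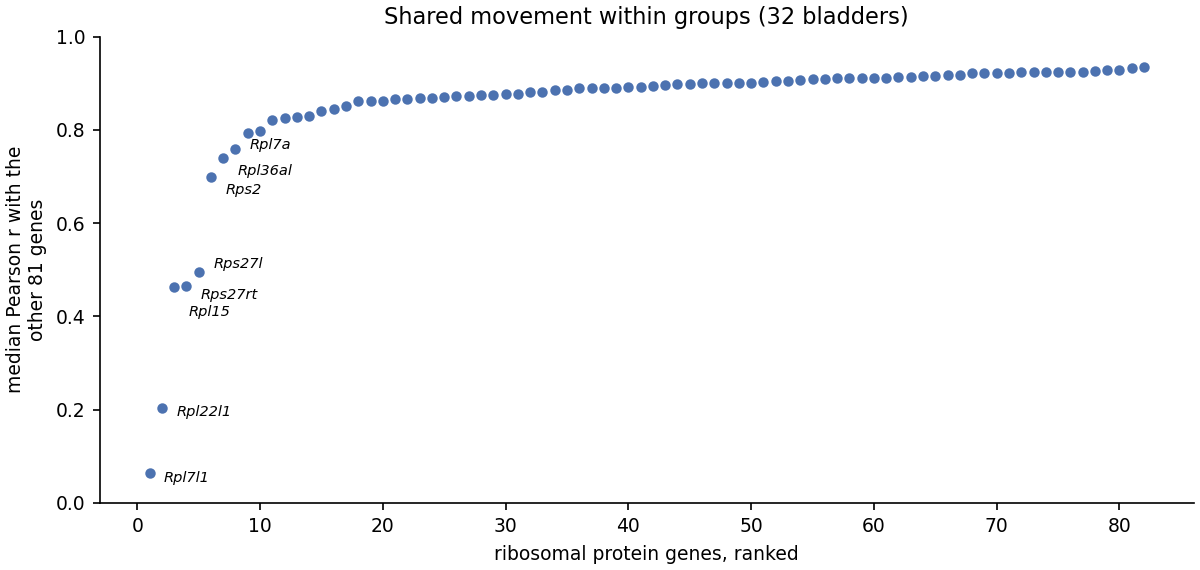
Median Pearson correlation of each member with the other 81 members over 32 bladders after removal of group means, ranked from lowest to highest. Rpl7l1 and Rpl22l1 lie at 0.0632 and 0.204, and from the ninth gene on the values lie close to or above 0.8.

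Middle-aged and young bladders were compared first, to describe the family between 2 and 10 months. In the 6 young bladders the members were widely spread, and 1 of the 82 passed the test. This was Rpl7l1, which lay between 69.5 and 74.2 CPM in young bladders (median 70.9) and at 67.4, 61.9, 65.2, 65.7 and 64.6 CPM in middle-aged bladders. It is the member that moved least with the others, and its groups did not overlap. Its log2 fold change was -0.15 (SE 0.039, edgeR's quasi-likelihood test, adjusted p = 0.0328), and at equal exon length -0.15 (adjusted p = 0.0211). Of all 16754 genes tested, 5.85% were called lower (6.66% at equal length), so 1 of 82 is under the background. The members' median log2 fold change was 0.12, with 79 of 82 above 0, beside a median of 0.0028 over all genes.

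That picture changed without young bladders 3 and 4, the shallowest of the group and also the ones with its highest family levels. Leaving them out lowers the young level by construction, so the calls without them are descriptions and no test. Without young bladders 3 and 4, left out after the data were seen, 61 members were higher and 1 lower in middle-aged than in young bladders, beside 10.8% of all genes called higher, and the median log2 fold change was 0.23. Rps21, a small subunit protein, had the largest change (0.43, SE 0.096, edgeR adjusted p = 0.0113), followed by Rps27 (0.38, SE 0.071, adjusted p = 0.00487) and Rpl14 (0.36, SE 0.062, adjusted p = 0.00402). With 1 bladder left out at a time the count was between 0 and 2. It fell to 0 without young bladder 1 or 6 or any of middle-aged bladders 2 to 5, and was 2 without young bladder 3 or 4. At equal exon length it fell to 0 without young bladder 1 or middle-aged bladder 2, 3 or 5, and was 2 without young bladder 3 and 9 without young bladder 4. Summed fibroblast markers also differed between these groups, at 15127 to 28259 CPM in young and 10223 to 12813 CPM in middle-aged bladders. Of these 8 markers 6 were lower, beside 5.85% of all genes called lower. Their part in the result was not tested.

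From 10 to 26 months the members were slightly lower. In untreated old against middle-aged bladders 7 members fell and 0 rose, beside 11.0% of all 17156 genes called lower, and the median log2 fold change was -0.076 over the members and -0.0047 over all genes. A share of 7 in 82 is therefore near the background. With exon length equalised 12 fell, beside 11.1% of all genes. The 7 were the large subunit genes Rpl14, Rpl37a, Rpl22, Rpl37 and Rpl28 and the small subunit genes Rps28 and Rps21. The 12 were these without Rpl28 (edgeR adjusted p = 0.0603) and with Rpl23a, Rpl36, Rpl38, Rplp1, Rps15 and Rps29.

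Rpl37a had the smallest adjusted p. It stood at 406, 367, 401, 410 and 389 CPM in middle-aged bladders and between 330 and 361 CPM (median 345) in untreated old bladders. Every old bladder was under every middle-aged bladder, and the log2 fold change was -0.16 (SE 0.036, edgeR adjusted p = 0.00564). Rpl14 was at 561, 491, 511, 562 and 522 CPM in middle-aged bladders and between 437 and 486 CPM in old bladders. Its groups did not overlap either, with a log2 fold change of -0.17 (SE 0.042, adjusted p = 0.0128). These 2 were the only members whose groups did not overlap, beside 6.07% of all genes that were lower without overlap. Scaled on the family itself, so that a change is a departure from the other members, Rpl37a was still lower (-0.095, SE 0.028, adjusted p = 0.0316) and Rpsa, the laminin-receptor protein of the small subunit, was higher (0.11, SE 0.032, adjusted p = 0.0244), 2 of 82 beside 19.4% of all genes. This scaling moved the median of all genes to 0.065, so the share of all genes reflects it as well. Rps18, used as a reference gene for RT-qPCR, was at 525 to 563 CPM in middle-aged and 503 to 551 CPM in untreated old bladders, a log2 fold change of -0.0099 (SE 0.034, adjusted p = 0.864).

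The count of 7 moved with single bladders. The share of all genes called in these fits is not given here, so the counts cannot be set against a background. It was 3 without untreated old bladder 1 or 6, 4 without middle-aged bladder 1 or 4 or untreated old bladder 2 or 5, 11 without untreated old bladder 3 and 20 without middle-aged bladder 2, the middle-aged bladder with the lowest family level. The family-scaled count of 2 was 0 without middle-aged bladder 3 or old bladder 2, and 1 without middle-aged bladder 5 or old bladder 4, 5 or 6. In the fit of all 6 groups together it was 0. The members' median was below 0 in the TMM fits without each bladder and in the fit of all 6 groups.

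Markers of other cell types differed between the same bladders, beside 13.0% of all genes called higher and 11.0% called lower. Genes of B and plasma cells rose in 9 of 10 cases, and their summed level was 61.6 to 434 CPM in middle-aged and 2706 to 17684 CPM in untreated old bladders. T cell genes rose in 8 of 8 cases (13.2 to 16.9 against 50.1 to 118 CPM) and macrophage genes in 7 of 8 (621 to 742 against 888 to 1369 CPM). Urothelial genes fell in 5 of 13 cases (7233 to 8451 against 6843 to 7337 CPM) and smooth muscle genes in 4 of 10 (32112 to 43673 against 31769 to 36553 CPM). Their part in the members' lower level was not tested.

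Between untreated old and young bladders 0 members passed edgeR's test, whereas 25.1% of all 16873 genes were called in either direction. An unadjusted p under 0.05 was reached by 1 member and 6125 genes. In the equal-length fit 0 members passed as well, beside 25.3% of all genes, and 6 members and 6182 genes had an unadjusted p under 0.05. DESeq2 called 1 member. The members' median log2 fold change was 0.033, with 57 of 82 above 0. Without young bladders 3 and 4 this changed to 41 members higher and 0 lower, beside 15.3% of all genes called higher, and the median was 0.15. Those bladders had the highest family levels of the young group, so their removal raises the members' change by construction. The range over single bladders left out was 0 to 1, the 1 call appearing without young bladder 4 or untreated old bladder 1. The equal-length count was 8 without young bladder 4 and 1 without young bladder 1 or 5 or untreated old bladder 1 or 5.

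**Figure D4:**
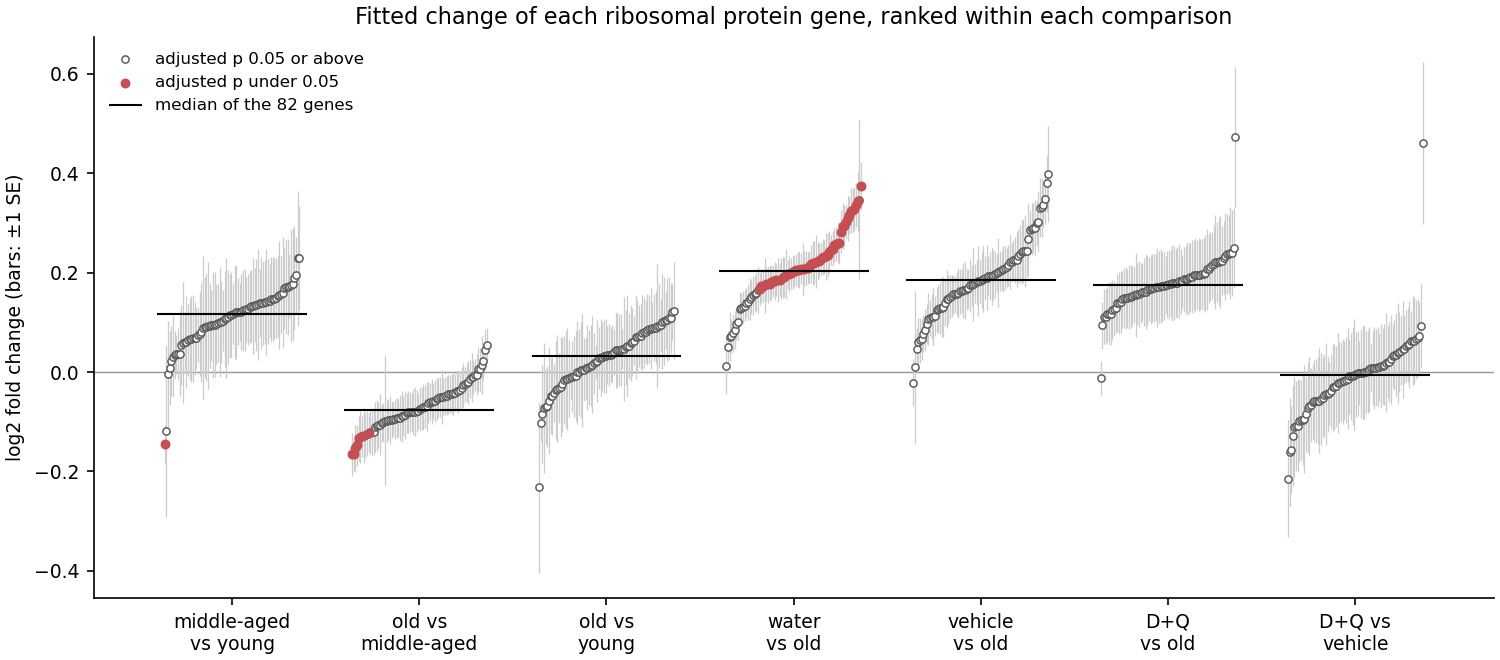
Fitted log2 fold change of each of the 82 members in the 7 comparisons, ranked within each comparison, with bars of ±1 SE. Red points passed an adjusted p of 0.05 in edgeR's quasi-likelihood test (1, 7, 0, 54, 0, 0 and 0 members from left to right) and horizontal lines mark the median of the 82 genes.

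Water gavage gave the clearest difference. Against untreated old bladders, 54 of the 82 members rose in water-treated old bladders and 0 fell, 33 of 49 in the large and 21 of 33 in the small subunit, while 0.487% of all 17250 genes were called higher. Only 173 genes were called in all, so the members made up 31.2% of them. All 82 members had a positive log2 fold change, with a median of 0.20 (1.15-fold) and a range of 0.013 to 0.37, beside a median of 0.00065 over all genes. Those that passed had log2 fold changes from 0.17 to 0.37 with SEs of 0.030 to 0.061. In 69 members every water-treated bladder was above every untreated old bladder, which was so in 1.52% of all genes. At equal exon length 41 members rose and 0 fell, beside 0.301% of all genes, and the median was 0.17.

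**Figure D5:**
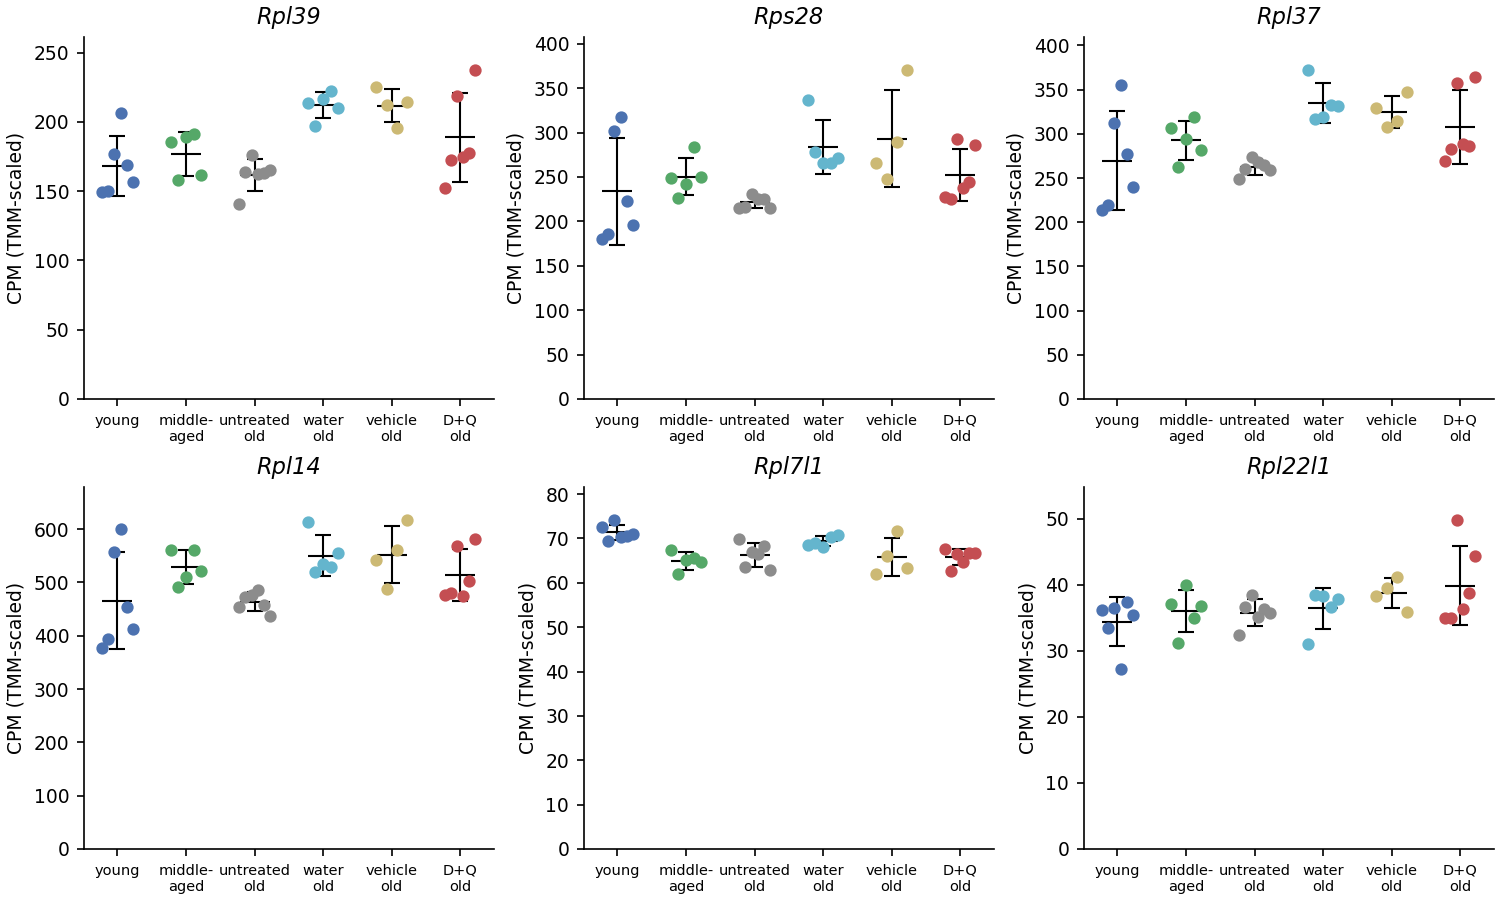
CPM in each bladder for Rpl39, Rps28 and Rpl37, the members with the largest called rise after water gavage, for Rpl14, which fell from 10 to 26 months, and for Rpl7l1 and Rpl22l1, which moved least with the family. Points are bladders and bars mean ± SD; the lowest water-treated bladder is above the highest untreated old bladder for the first 4 genes.

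Rpl39, Rps28 and Rpl37 had the largest called changes. Rpl39, which lines the exit tunnel of the large subunit, stood between 141 and 176 CPM in untreated old bladders (median 164) and at 214, 197, 217, 222 and 210 CPM in water-treated bladders. All 5 water-treated bladders were above all 6 untreated ones, a log2 fold change of 0.37 (SE 0.049, edgeR adjusted p = 0.0113). Rps28, at the mRNA exit of the small subunit, was between 215 and 231 CPM in untreated old bladders and at 337, 278, 266, 266 and 271 CPM after water. The first of these, from the shallow water-treated bladder 1, is well above the other 4, and the log2 fold change was 0.34 (SE 0.061, adjusted p = 0.0235). Rpl37, a zinc-binding protein of the large subunit, was between 248 and 274 CPM in untreated old bladders and at 373, 316, 319, 333 and 332 CPM after water (log2 fold change 0.34, SE 0.045, adjusted p = 0.0113). Rpl35a had the smallest adjusted p of the family, with 206 to 231 CPM in untreated old and 272, 266, 275, 282 and 271 CPM in water-treated bladders (0.30, SE 0.033, adjusted p = 0.00761).

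Of 8 proteins chosen for the stalk or for assembly of the small subunit, 4 rose. Beside them stand 65.9% of the whole family and 0.487% of all genes called higher. In the stalk, Rplp2 rose (0.32, SE 0.046, adjusted p = 0.0124), while Rplp1 (0.21, SE 0.052, adjusted p = 0.0893) and Rplp0, the base of the stalk (0.10, SE 0.035, adjusted p = 0.190), did not pass. In the small subunit, Rps3, a DNA repair enzyme as well as a subunit protein, rose by 0.18 (SE 0.032, adjusted p = 0.0213). Rps6, whose phosphorylation reports mTOR activity, was between 405 and 439 CPM in untreated old and between 467 and 503 CPM in water-treated bladders and rose by 0.20 (SE 0.032, adjusted p = 0.0168). Rpsa (0.085, SE 0.039) and Rps2 (0.096, SE 0.031) did not pass. Rps18 was at 503 to 551 CPM in untreated old bladders and at 623, 609, 593, 586 and 614 CPM in water-treated bladders. The groups of this reference gene did not overlap, with a log2 fold change of 0.17 (SE 0.034, adjusted p = 0.0371). The study's RT-qPCR is described for young, middle-aged and old mice, with no gavaged group named, and averaged Rps18 with Ywhaz and B2m.

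The 4 members listed for acting on Mdm2 and p53 were among the 65.9% of the family that rose: Rpl5 by 0.18 (SE 0.037, adjusted p = 0.0485), Rpl11 by 0.23 (SE 0.032, adjusted p = 0.0124), Rpl23 by 0.23 (SE 0.036, adjusted p = 0.0144) and Rpl26 by 0.26 (SE 0.034, adjusted p = 0.0113). Rpl11 was between 348 and 391 CPM in untreated old bladders and between 439 and 450 CPM after water. With exon length equalised 3 of these 4 passed, beside 41 of all 82 members. Of 4 genes of the p53 circuit itself, 0 passed by edgeR, 1 at an unadjusted p under 0.05, and the p53 target Cdkn1a was at 70 to 80 CPM in untreated old and 72 to 90 CPM in water-treated bladders.

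Of 14 members that are paralogs or their parents, 4 rose, beside 65.9% of the whole family and 0.487% of all genes called higher. Rpl22 rose by 0.20 (SE 0.032, adjusted p = 0.0144), whereas its paralog Rpl22l1 had a log2 fold change of 0.013 (SE 0.058, adjusted p = 0.947). Rpl36a rose by 0.24 (SE 0.044, adjusted p = 0.0280), and Rpl36al had 0.14 (SE 0.036, adjusted p = 0.0984). Rpl7 had 0.13 (SE 0.031) and Rpl7l1 0.051 (SE 0.032), and Rps27 had 0.20 (SE 0.050) and Rps27l 0.071 (SE 0.049), none of which passed. The difference between a parent and its paralog was not tested. Of 15 members that the study names for the luminal spots of its spatial transcriptomes, 12 rose, with Rpl10, Rpl13 and Rps4x not passing, beside 65.9% of the whole family. The study lists these 15 as higher in old than in middle-aged luminal spots, whereas whole bladders were measured here. In untreated old against middle-aged bladders 1 of these 15 fell and 0 rose, beside 11.0% of all genes called lower. All 15 log2 fold changes were below 0 and their median was -0.087.

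Scaled on the family, which moved the median of all genes to -0.20, 11 members were higher than the rest after water and 8 lower. On that scale 0.174% of all genes were called higher and 49.7% lower, shares that reflect the shift and are no background for the members. The 11 were Rpl39 (0.17, SE 0.044, adjusted p = 0.00808), Rps28, Rpl37, Rps29, Rps21, Rplp2, Rpl36, Rpl38, Rpl35a, Rpl37a and Rpl27a. Among the 8 were Rpl22l1 (-0.19, SE 0.064, adjusted p = 0.0292), Rpl7l1 (-0.15, SE 0.043, adjusted p = 0.0129), Rpl15, Rpl7a, Rpsa, Rps2 and Rplp0. The coding sequences of the first were 153 to 444 bases long (median 276) and those of the second 366 to 951 bases (median 768), beside a median of 454.5 over all members. Rpl22 itself was at 0.00048 (SE 0.027, adjusted p = 0.989) on this scale. Across the 82 members the log2 fold change after water correlated at -0.375 with transcript length and at -0.228 with summed exon length. With transcript length the value was -0.367 for vehicle and -0.355 for D+Q, both against untreated old bladders. For untreated old against middle-aged bladders it was 0.382. These values are descriptions, since genes are not replicates and the comparisons share the untreated old bladders.

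The water result has limits. It was 0 members when all 6 groups shared 1 estimate of spread, where 0% of all genes were called higher and the smallest edgeR adjusted p of a member was 0.277. In that fit 72 members and 1749 of all 18093 genes had an unadjusted p under 0.05, and the members' median was still 0.20. DESeq2 called 74 members higher and 0 lower, beside 2.04% of all genes. With single bladders left out 22 to 53 members were called: 22 without water-treated bladder 1 or 5, 32 without water-treated bladder 4, and 35, 29, 25 and 25 without untreated old bladders 1, 2, 5 and 6. The equal-length count of 41 was 0 without untreated old bladder 5 or 6, 1 without water-treated bladder 5, and 13, 12, 11, 16 and 27 without water-treated bladders 1 and 4 and untreated old bladders 1, 2 and 3. The share of all genes called without single bladders is not given here. Beside these genes, summed urothelial markers were at 7164 to 8376 CPM in water-treated and 6843 to 7337 CPM in untreated old bladders, with 1 of 13 genes called higher, and counts from mitochondrial genes were 2.12% to 2.82% of the total in water-treated and 2.74% to 3.04% in untreated old bladders. The part of either in the result was not tested.

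With vehicle gavage the members' median was 0.18 beside 0.20 with water, and no member passed edgeR's test. Of the members 0 passed edgeR's test against untreated old bladders, with 71 at an unadjusted p under 0.05 and a smallest adjusted p of 0.135, and 0% of all 17440 genes passed in either direction, 1464 with an unadjusted p under 0.05. Of the members 81 of 82 had a log2 fold change above 0, and in 52 members the groups did not overlap, all higher, beside 1.39% of all genes. DESeq2 called 46 members higher and 0 lower, beside 0.807% of all genes. At equal exon length 0% of all genes passed, 60 members and 1481 genes had an unadjusted p under 0.05, and the members' median was 0.15. Rpl39 was at 225, 212, 196 and 215 CPM, above all 6 untreated old bladders, with a log2 fold change of 0.38 (SE 0.058, edgeR adjusted p = 0.149). Rps28 was at 265, 247, 289 and 371 CPM, the last from the shallow bladder 4 (0.40, SE 0.097, adjusted p = 0.329). Rps18 was at 608, 570, 583 and 631 CPM, again without overlap (0.16, SE 0.045, adjusted p = 0.408). Beside these genes, summed urothelial markers were at 7379 to 8470 CPM with vehicle and 6843 to 7337 CPM in untreated old bladders, without overlap and with 0 of 13 genes called, and mitochondrial counts were 2.12% to 2.76% and 2.74% to 3.04% of the total. Their part in the result was not tested.

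Scaled on the family, Rpl39, Rpl36, Rplp2, Rpl38, Rps29 and Rpl37 were higher than the rest after vehicle, with log2 values of 0.11 to 0.20, and Rpl7a was lower at -0.12 (SE 0.036, edgeR adjusted p = 0.0407). That is 6 of 82 beside 0.0459% of all genes called higher, and 1 of 82 beside 19.9% called lower. The scaling moved the median of all genes to -0.18, so these shares of all genes reflect the scaling and are no background for the members. The count of 7 was 0 without vehicle-treated bladder 4 or untreated old bladder 1, 2, 5 or 6, 3 without vehicle-treated bladder 1 and 4 without untreated old bladder 4. The water and vehicle comparisons share their 6 untreated old bladders, so they are not independent. Side by side, Rplp2 had 0.32 with water and 0.34 with vehicle, Rpl36 0.32 and 0.35, Rpl38 0.31 and 0.33, Rpl15 0.073 and 0.066, and Rpl7l1 0.051 and -0.021.

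After D+Q the members were widely spread between bladders. Against untreated old bladders 0% of all 17037 genes and 0 of the members passed edgeR's test, with 2200 genes and 72 members at an unadjusted p under 0.05 and a smallest adjusted p of 0.277 among the members. In the equal-length fit 0% of all genes and 0 members passed, and 2101 genes and 60 members had an unadjusted p under 0.05. DESeq2 called 0 members. The members' median log2 fold change was 0.18, close to that with water and vehicle. At equal exon length it was 0.13, beside 0.17 with water and 0.15 with vehicle. No member had groups without overlap, beside 0.247% of all genes that were higher without overlap. Rpl39 ranged from 153 to 238 CPM (median 176), with bladders 3 and 6 at 218 and 238 and the other 4 at 153, 173, 175 and 178 CPM. These 4 lay within or just above the range of untreated old bladders, and bladders 3 and 6 were in the range of the gavaged controls or above it. The same split was present in Rpl37, with 357 and 365 CPM in bladders 3 and 6 and 269 to 288 CPM in the other 4, and in Rps18, with 706 and 674 CPM against 528 to 600 CPM. Without bladders 3 and 6, left out after the data were seen, the median was 0.066 and 0 members passed. As these bladders had the highest family levels of all, a lower median without them was fixed in advance.

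Against vehicle-treated bladders, the comparison that isolates the drugs, 0 members passed, 1 at an unadjusted p under 0.05, and 0% of all 17267 genes passed by edgeR, 722 with an unadjusted p under 0.05. With exon length equalised 0% of all genes and 0 members passed, and 820 genes and 3 members had an unadjusted p under 0.05. DESeq2 called 0 members. Without D+Q-treated bladders 3 and 6, left out after the data were seen, the members' median log2 fold change was -0.12, with 2 of 82 above 0. Those bladders had the highest family levels of all, so a lower median without them was fixed in advance. With all bladders the median was -0.0053, with 36 of 82 above 0. Rps28 had the lowest value (-0.21, SE 0.12) and Rps27rt, counted at 2.9 to 6.8 CPM in the old groups, the highest (0.46, SE 0.16), each with an adjusted p of 0.994.

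Other genes of the translation machinery were counted from lists, beside 0.487% of all genes called higher after water. Fau, which encodes a small subunit protein fused to a ubiquitin-like domain, rose (0.23, SE 0.045, edgeR adjusted p = 0.0372), 1 of 3 ribosomal proteins whose symbols fall outside the rule. Of 8 elongation factors 2 rose, the subunits Eef1d (0.17, SE 0.031, adjusted p = 0.0249) and Eef1b2 (0.13, SE 0.026, adjusted p = 0.0380) of the exchange factor that recharges eEF1A. Eef1d was at 138 to 153 CPM in untreated old and 157 to 168 CPM in water-treated bladders. Of 29 initiation factors, 38 ribosome biogenesis genes and 16 genes of translation control, 0 passed edgeR's test. At an unadjusted p under 0.05 were 15, 10 and 3 of them, beside 2760 of all 17250 genes. Their median log2 fold changes were 0.074, 0.058 and 0.0064. Mitochondrial ribosomal proteins had 1 of 78 higher and a median of 0.060, and complex I subunits 3 of 38 and a median of 0.11. With exon length equalised, 1 of 8 elongation factors and 0 of the 3 ribosomal proteins outside the rule, of mitochondrial ribosomal proteins and of complex I subunits passed, beside 0.301% of all genes called higher. With vehicle or D+Q against untreated old bladders 0 of 98 translation and p53 genes passed edgeR's test, 14 at an unadjusted p under 0.05 in each comparison, and between D+Q and vehicle 0 passed and 3 were at that level.

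Between 10 and 26 months 13.0% of all genes were called higher and 11.0% lower. Of 38 ribosome biogenesis genes 5 rose and 2 fell, shares near or under the background. The largest rise was that of Gar1, a protein of the complexes that pseudouridylate ribosomal RNA (0.21, SE 0.062, edgeR adjusted p = 0.0258). Eef1d fell by 0.18 (SE 0.043, adjusted p = 0.0104) and the helicase cofactor Eif4b by 0.19 (SE 0.047, adjusted p = 0.0113). Complex I subunits fell in 23 of 38 cases, with a median of -0.14. Mitochondrial ribosomal proteins fell in 6 of 78 cases, under the background, with a median of -0.058. From 2 to 10 months, beside 4.96% of all genes called higher and 5.85% lower, Eif4b (0.26, SE 0.076, adjusted p = 0.0423) and Eif3e (0.23, SE 0.066, adjusted p = 0.0393) rose and the biogenesis factor Tsr1 fell by 0.18 (SE 0.049, adjusted p = 0.0384).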

How the data were processed

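Per the labels and the study's methods, the authors made stranded total RNA libraries, aligned them to mm10 with STAR 2.7.3 and deposited featureCounts counts per gene with each gene's summed exon length, the other deposited unit. The strand and multi-mapping settings of counting are not given in the sources used here. A normalized table was not used. Symbols were available for all but 127 gene identifiers.

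Counts were compared, 2 groups at a time, with edgeR 4.0.16 (R 4.3.3): TMM scaling, filterByExpr, the quasi-likelihood test, Benjamini-Hochberg adjustment over all genes tested and a threshold of 0.05. SE is the log2 fold change divided by the root of the F statistic. At equal exon length, each bladder's lowess trend on log2 length entered as an offset. A further fit scaled libraries on the members' geometric mean. CPM printed are TMM-scaled over all 6 groups, those of non-members over the groups of their comparison. The code was tested on simulated data. Deviations of bladders with the same replicate number in their titles correlated between -0.190 and 0.234. In the middle-aged, water- and vehicle-treated groups some deposited count columns carry other numbers than the titles. Pairing by those column numbers was not tested. Labels do not say whether litters or cages were shared, so p-values measure the spread between bladders, and no sequencing batch is given. Named genes were lists of members by role and of the translation machinery, and up to 3 members per direction and comparison with the largest called change and no overlap. Members and lists were chosen with earlier results of these data known. Alternatives were DESeq2 1.42.0, other scalings and filters, all groups together, a replicate block, leaving out bladders and GENCODE transcript length. Some single-gene results are not reported here.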

Additional observations from a re-analysis of the deposited data

Results flagged for a closer look

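In 9 of 258 sets of 4 to 6 bladders, 1 bladder lay far from the others of its group by Dixon's test. Chance alone flags about 5% of such sets. Of these, 6 were in water-treated bladder 1, the shallowest of its group at 18697996 counts. There Rps28 was at 337 CPM, Rpl37 at 373 CPM, Rpl37a at 480.0 CPM and Rplp1 at 1099 CPM, each above the other 4 bladders, and Rpl22l1 was below them at 31.0 CPM. Its slope of all genes on exon length was -0.0258 log2 units per doubling, against -0.0066 to -0.0024 in the other 4. The other 3 were Rplp0 in water-treated bladder 5 at 1471 CPM, Rpl3 in middle-aged bladder 1 at 863 CPM and Rps2 in vehicle-treated bladder 3 at 725 CPM, each the highest of its group.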

How the results depend on the processing

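The comparisons with young bladders changed most in count without the 2 shallowest young bladders. These also differed from the other 4 in their slope on exon length and had the highest family levels of their group. Leaving them out therefore raises the members' change by construction. The gavage comparisons rest on 4 to 6 bladders a group. The cause of the changes below was not tested. Counts with 1 bladder left out, here and above, stand without the share of all genes called in those fits. So do counts under other settings, unless that share is printed above. Counts without that share cannot be set against a background and describe only how stable the counts of members were. Between middle-aged and young bladders the 1 call became 0 with library size only, with no filter, with family scaling and with the replicate block, and 62 without the 2 shallowest young bladders. Leaving out 1 bladder gave 0 to 2, at equal exon length 0 to 9 and relative to the family 0 to 1. Between untreated old and middle-aged bladders the 7 calls became 15 with DESeq2, 4 with no filter, 4 with at least 10 counts in every bladder, 0 with all 6 groups in 1 fit, 12 with the exon length offset and 2 with family scaling, where the median was -0.0059. Leaving out 1 bladder gave 3 to 20, and 0 to 3 relative to the family. The 12 calls at equal exon length became 37 with a cubic polynomial and 4 with GENCODE transcript length. Between untreated old and young bladders 0 calls became 1 with DESeq2, 1 with all 6 groups and 41 without the 2 shallowest young bladders, and leaving out 1 bladder gave 0 to 1. In the equal-length fit it became 12 with the cubic polynomial and 1 with GENCODE length, and 0 to 8 with 1 bladder left out. The 54 calls for water became 0 with all 6 groups and 19 with family scaling, and leaving out 1 bladder gave 22 to 53, at equal exon length 0 to 37. For vehicle, 0 calls became 46 with DESeq2 and 7 with family scaling, and that 7 was 0 to 10 with 1 bladder left out. Family scaling, which centres the members by construction, turned the medians to -0.00019 for water, -0.0019 for vehicle and -0.0021 for D+Q against untreated old bladders, and Rps3 to -0.018, Rps6 to -0.0048, Rps18 to -0.031, Rpl5 to -0.025 and Rpl35 to -0.0063 for water. The replicate block used the numbers in the sample titles, which differ from those of some deposited count columns, so it cannot decide whether bladders were paired. With the replicate block the counts were 0 for middle-aged against young at either length setting, 2, 5 and 0 (TMM, equal exon length, family) for untreated old against middle-aged, and 0, 0 and 3 for water against untreated old, with the family-scaled count for vehicle at 0. Among recomputed values of single named genes, 403 kept direction and call, 160 lost the call and 5 turned.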
